A study of Mus musculus with 2 samples.

Results

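The cytosolic ribosomal protein genes were taken as every gene with a protein-coding transcript whose symbol begins with Rpl or Rps and a digit, or is Rplp0, Rplp1, Rplp2 or Rpsa, leaving out symbols with -ps and the Rps6k kinases. This rule, which used no measured value, took 86 of 55536 genes. Of these, 46 encode proteins of the large subunit and 31 encode proteins of the small subunit, and these 77 are called canonical here. The other 9 are paralogs, retrotransposed copies or genes that share only the name. The RNA came from spleen neutrophils of male B6CASTF1/J mice at 65 days, F1 hybrids whose mother was C57BL/6 and whose father was CAST/EiJ. There was 1 group with 2 libraries of total RNA, called replicate 1 and replicate 2, with an input of 300 ng, ERCC spike-ins and a directional kit. Both carry the same donor identifier, so separate animals are not shown, and p-values measure only the difference between these libraries, which may be technical.

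Ribosomal proteins assemble with ribosomal RNA into the small subunit, which reads the mRNA, and the large subunit, which forms peptide bonds. Most of their mRNAs begin with a C followed by a run of pyrimidines, the terminal oligopyrimidine (TOP) motif, through which mTOR and the RNA-binding protein LARP1 set their translation and stability together. Their genes have left many processed pseudogenes in mammalian genomes, and several carry small nucleolar RNAs in their introns. Neutrophils make much of their granule protein as precursors in the bone marrow and have a low rate of protein synthesis when mature.

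The TOP motif was looked for in RefSeq's annotated starts (GRCm38.p6, the build also called mm10), which matched 66 of the 86 genes. A C and at least 4 further pyrimidines, beginning within 5 bases of the start, stood in 30 of these 66 genes (45.5%), against 21.2% of the 27025 genes in the table. A run of a C and at least 7 pyrimidines stood in 31.8% of the 66 genes and in 5.17% of all. The starts below run from 5 bases before to 20 bases after the annotated start, 5′ to 3′ on the gene's strand. They are those of some of the members named in the results. Members with a run make up a larger part of them than of the 66 matched genes. Capitals mark the pyrimidine run.
Rps9 (chr7:3704036-3704060, plus strand): CTCTCTTTgtctcgggcctgagttc
Rps27 (chr3:90213629-90213653, minus strand): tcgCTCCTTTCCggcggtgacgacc
Rpl13a (chr7:45128726-45128750, minus strand): gacaagaCCTCCTCCTTTCCCaggc
Rpl28 (chr7:4792960-4792984, plus strand): tgtCTCTCTTTCCgtctccggccgc
Rpl27a (chr7:109519190-109519214, plus strand): gCTCCTCCCTTTTCCCTTTCTgcca
Rpl15 (chr14:18270967-18270991, minus strand): gCCTTCTTCCTTTCCTCTggcggca
Rpl35 (chr2:39005112-39005136, minus strand): CTTTCCTCTTTCTCTCgaaccaggc
Rpl31 (chr1:39367846-39367870, plus strand): gCCTCCCCgtgacccggaagttgta
Rps26 (chr10:128626487-128626511, minus strand): ccgccggatCCTCTTTCgagtcttg
Rpl41 (chr10:128549149-128549173, minus strand): ggctcggaagtgacgacaccgagca
Rpl5 (chr5:107900523-107900547, plus strand): cttgcgtgctggtggtgctacatac
Rpl27 (chr11:101442240-101442264, plus strand): cctgtctgctgctcgtgctgctaat

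In the first 9 of these the run begins near the annotated start, and it is longest in Rpl27a. The last 3, Rpl41, Rpl5 and Rpl27, hold no such run within these bases. RefSeq's starts can differ from those of the GENCODE annotation, and a run at another start would be missed. For Rpl27 the window ends at 101442264, whereas its GENCODE gene begins at 101442298. In the 300 bases from 250 before to 50 after the start, read on both strands, the ETS-type motif CCGGAAG stood in 39.4% of the matched members and 9.93% of all genes in the table. The motif GCCATNTT, that of the factor YY1, stood in 19.7% against 6.96%. TATAAA stood in 10.6% against 15.7%. These are letters in annotated windows, and no binding was measured.

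The deposited TPM (transcripts per fixed total, a level scaled by length) put the members far above the typical gene. Their median was 118 TPM in replicate 1 and 197 TPM in replicate 2 (158 ± 55.9, SD, n = 2). The median of the 14633 protein-coding genes with TPM above 0 was 4.03 and 4.87 TPM. All 77 canonical genes were at 10 TPM or more in both libraries, and 48 members were at 100 TPM or more in both. Together the members took 3.36% and 3.81% of the TPM of protein-coding genes. TPM is a share of all RNA in a library, and the signal recognition particle RNA 7SL alone took 43.8% and 31.6% of it, so TPM levels of other genes sit higher in replicate 2. In bulk RNA, fewer cells of a type and less RNA per cell cannot be told apart.

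The small subunit genes stood above the large subunit genes in both libraries. Their median was 162 and 244 TPM, against 116 and 187 TPM for the large subunit. On the log2(TPM + 0.1) scale the large subunit median was lower by 0.48 and 0.38, a mean difference of -0.43 ± 0.07 (SD, n = 2). By the second quantification of the same libraries, with kallisto's layout, the difference was -0.25 ± 0.02.

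**Figure D1:**
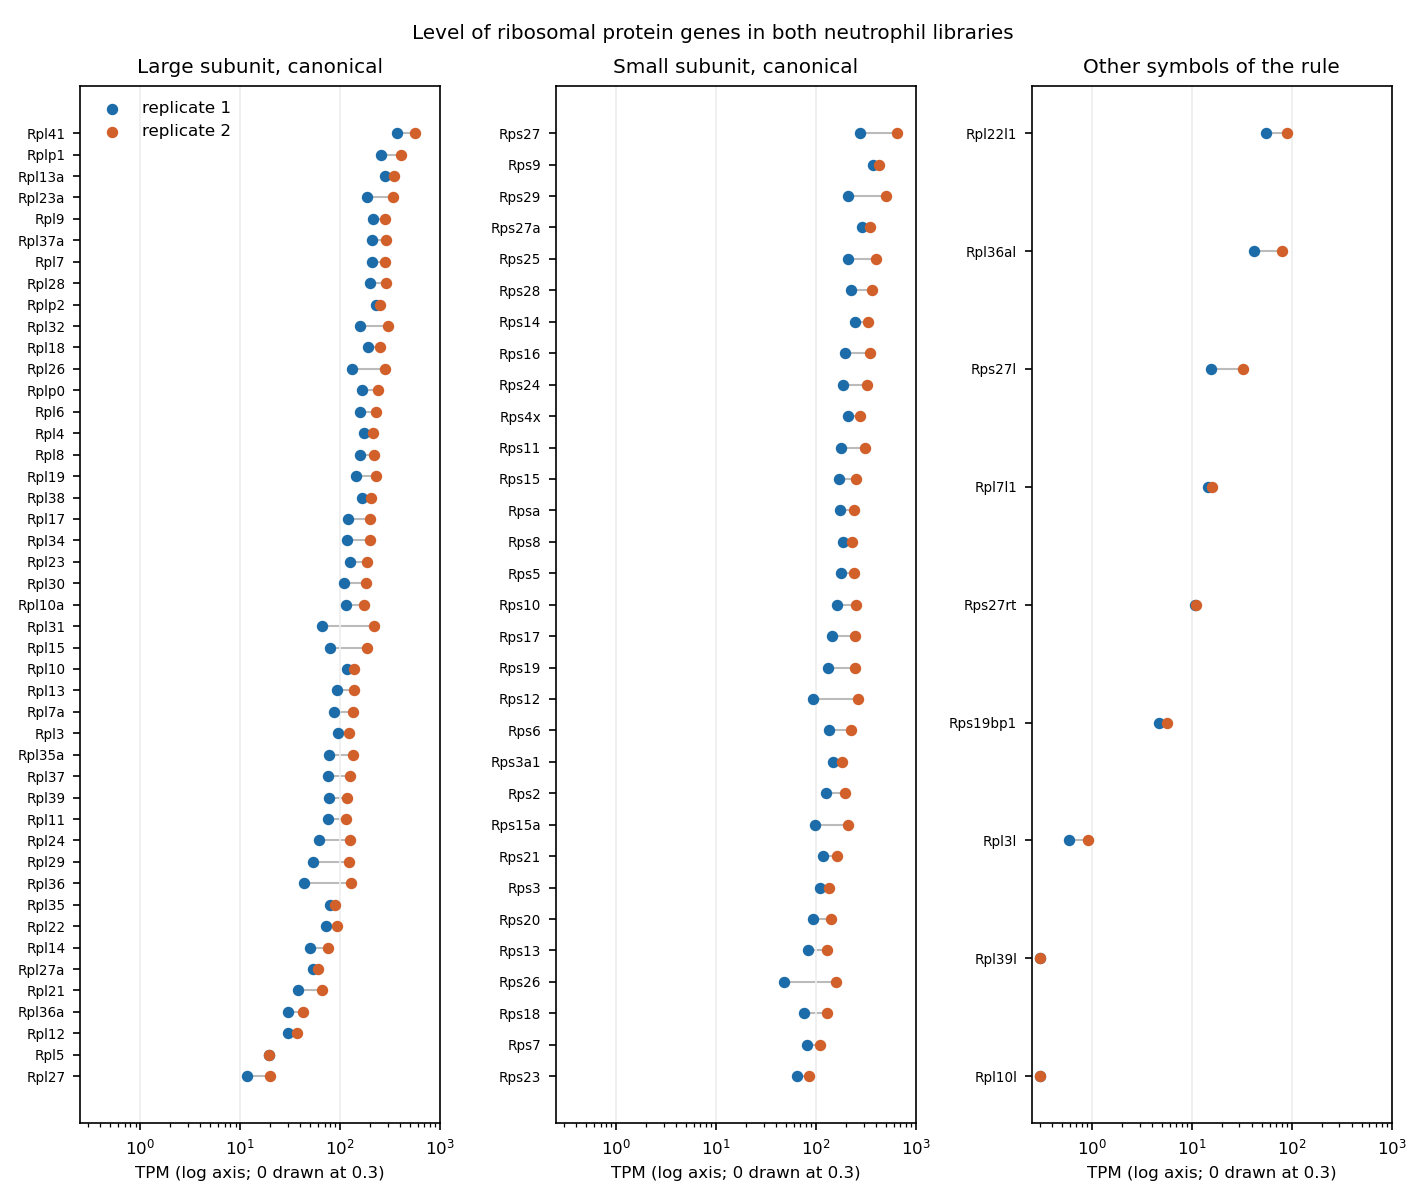
Deposited TPM (horizontal log axis) of members, with 1 point for each library and a line joining both, split into canonical large subunit genes, canonical small subunit genes and the other symbols. Canonical genes lie between 11.8 and 655 TPM, most points of replicate 2 lie to the right, and Rpl10l and Rpl39l are at 0 in both libraries.

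Of the large subunit genes, Rpl41, which encodes the smallest ribosomal protein, was highest with 369 and 569 TPM. Rplp1, an acidic protein of the stalk that recruits translation factors, had 259 and 409.6 TPM, but only 141 and 239 TPM by kallisto, near the canonical medians of 141 and 237 TPM there. In the gene table, these and the next genes overlap in level, since the lower value of each lies below the higher value of its neighbour in the order. Rpl13a, also known as a part of the interferon-gamma activated inhibitor of translation, had 285 and 348 TPM. Rpl23a had 186 and 338 TPM.

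At the other end of the large subunit stood Rpl27, with 11.8 and 20.1 TPM, and Rpl5, with 19.7 and 19.5 TPM. RPL5 binds the ribosomal RNA of the central protuberance and, with RPL11, restrains the p53 ligase MDM2. Rpl12, a protein at the base of the stalk, had 30.0 and 37.3 TPM. Rpl36a had 30.0 and 42.6 TPM and Rpl21 had 38.3 and 65.7 TPM. In replicate 1 each of these 5 genes lay below 40 TPM, but every one of them has near-identical copies in the genome that hold a large part of its reads, described further on.

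Of the small subunit genes, Rps27 was highest by its mean, with 276 and 655 TPM. Rps9 had 374 and 425 TPM, and was the highest of all members in replicate 1. Rps29, a small zinc-binding protein, had 208 and 502 TPM. In TPM, which sits higher in replicate 2, Rps27 and Rps29 differed most between the libraries among these 3 genes, and Rps9 least. Rps27a, which is made as a fusion with ubiquitin, had 288 and 347 TPM, and Rps25 had 210.2 and 401 TPM. The lowest small subunit genes were Rps23, with 65.4 and 84.9 TPM, and Rps7, with 81.5 and 110.1 TPM. Rps18, Rps26 and Rps13 followed with means of 103, 103 and 107 TPM. For most of these, too, the level depends on near-identical copies: joined with them, Rps23 stood at a mean of 261 TPM, Rps18 at 205, Rps7 at 193 and Rps13 at 181 TPM. By kallisto without joining, Rps23 stood at 201 TPM. Rps18, Rps7 and Rps13 stood at 116, 88.3 and 129 TPM there, nearer to their levels counted alone. Rps26, whose protein lies at the mRNA exit channel, had only 47.6 TPM in replicate 1 and 158 TPM in replicate 2.

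Of the 9 other symbols, the paralogs known from testis and muscle were at or near 0. Rpl10l and Rpl39l had 0 counts in both libraries, which allows up to 0.149 and 0.175 TPM for Rpl10l and up to 0.238 and 0.280 TPM for Rpl39l (3 counts). Rpl3l, a paralog of striated muscle, had 12.0 and 16.0 expected counts, or 0.590 and 0.920 TPM. Further paralogs were present at levels below most canonical genes. Rpl22l1, a paralog of Rpl22, had 55.9 and 88.7 TPM, beside 72.0 and 94.3 TPM for Rpl22 itself. Rpl36al had 42.2 and 79.4 TPM, in each library above Rpl36a counted alone, but by kallisto it was below, with 26.6 and 70.2 TPM against 49.9 and 104 TPM. Rps27l, a p53-responsive paralog of Rps27, had 15.6 and 32.3 TPM. Rpl7l1, a nucleolar relative of Rpl7, had 14.4 and 15.9 TPM. Rps19bp1, which is named for binding RPS19 and is no ribosomal protein, had 4.74 and 5.70 TPM.

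The last of the 9, Rps27rt (chromosome 9, 114982366 to 114982739), shows how these values depend on sequence. Its coding sequence of 255 bases is identical to that of Rps27 (chromosome 3, 90212522 to 90213651), whereas Rps27l differs from Rps27 at 61 of 255 positions and is 76.1% identical. The first 120 bases of both coding sequences, from the GENCODE vM21 transcripts Rps27-201 and Rps27l-201, are shown with the bases of Rps27l that differ in capitals.
Rps27: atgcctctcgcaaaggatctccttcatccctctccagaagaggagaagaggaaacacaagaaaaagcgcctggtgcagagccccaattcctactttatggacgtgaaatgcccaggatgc
Rps27l: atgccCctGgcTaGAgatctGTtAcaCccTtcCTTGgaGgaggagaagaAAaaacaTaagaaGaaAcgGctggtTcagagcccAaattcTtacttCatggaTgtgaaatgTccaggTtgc

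In this stretch 28 bases differ, so reads of Rps27 and Rps27l can be told apart, but those of the coding sequence of Rps27 and Rps27rt cannot. The gene table gave Rps27rt 10.8 and 11.1 TPM with fractional counts of 64.3 and 56.6. Kallisto gave it 0 TPM in both libraries and gave Rps27 309 and 674 TPM. The level of Rps27rt therefore rests on how shared reads were divided. Of the other pairs, Rpl36a and Rpl36al are 87.9% identical over their coding sequence, Rpl39 and Rpl39l 85.3%, Rpl10 and Rpl10l 84.8%, and Rpl22 and Rpl22l1 67.5%.

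Copies of members elsewhere in the genome held a sizeable part of the reads. A copy was any pseudogene or protein-coding gene outside the members with a transcript at least 90% identical to a member's mRNA, on the same strand, over at least 50% of its own length. There were 1186 such copies of 81 members, 1172 of them annotated as pseudogenes. They held 35888 of the expected counts in replicate 1 and 44885 in replicate 2, which is 21.2% and 20.6% of the counts of members and copies together. Only 131 copies had 10 counts or more over both libraries, and 74 of these were at least 99% identical to the member. Counts on 77 of the 86 members were fractional (over 0.01 from a whole number), as they are when a read is divided among genes.

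Rpl5 (chromosome 5, 107900502 to 107909005) was the member with the largest part of its reads on copies. It had 435 and 369 counts of its own, while its copies held 85.0% and 88.5% of the joined counts. Nearly all of these lay on Gm15500, annotated as a transcribed processed pseudogene (chromosome 7, 114705217 to 114706235), which is 100% identical over 1018 bases and had 2461 and 2833 counts. Joined with its copies, Rpl5 stood at a mean of 150.3 TPM instead of 19.6 TPM, and kallisto, without joining, gave 73.0 TPM. Rpl27 (chromosome 11, 101442298 to 101445529) had 152 and 176 counts and 82.8% and 85.9% on copies. Its 2 main copies, Gm11518 and Rpl27-ps3, are both 100% identical over 411 bases and each received the same 364 and 536 counts. Joined, Rpl27 rose from a mean of 16.0 to 106 TPM, and kallisto, without joining, gave 111 TPM.

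Other members followed the same pattern. Copies held 70.8% and 74.9% of the counts for Rpl12, 72.3% and 70.3% for Rps23, 60.1% and 68.1% for Rpl27a, and 55.3% and 62.3% for Rpl28. The 5 pseudogenes with the most counts were Gm15500, Rpl3-ps1 (1448 and 1791 counts), Rps23-ps1 (1497 and 1704), Rps2-ps13 (1637 and 1563) and Gm8730, a copy of Rplp0 (1272 and 1671). Rpl10-ps3, annotated as protein-coding and 100% identical to Rpl10 over 740 bases, had 1613 and 3162 counts in the gene table and 0 TPM by kallisto. In 10 members in replicate 1 and 13 in replicate 2, the copies held more counts than the member did. For 24 and 25 members they held under 1%, among them Rpl41, Rps27, Rpl18, Rpl32 and Rps25. The annotation calls some of these pseudogenes transcribed, and whether they are so in these cells was not tested.

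**Figure D2:**
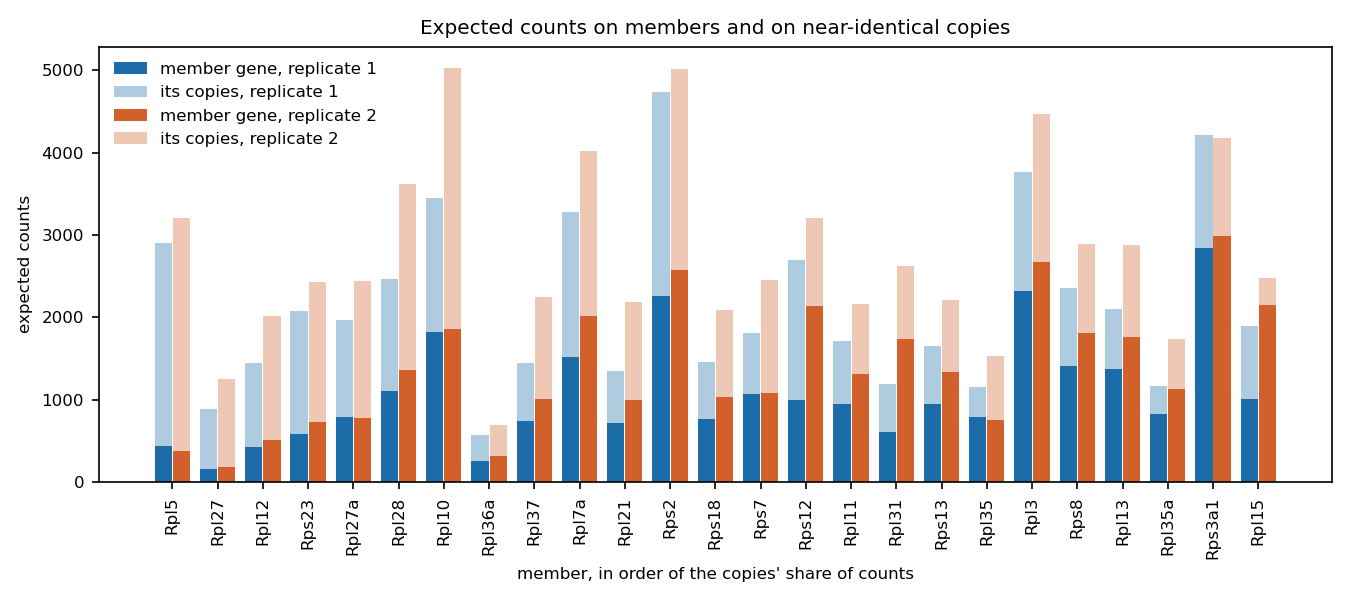
Expected counts (vertical axis) of the 25 members with the largest share of counts on copies, in order of that share. Dark bars are the member's own counts and pale bars stacked on them those of its copies, for each library. For Rpl5, on the far left, the pale part makes up 85.0% and 88.5% of the bar.

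Joining each member with its copies narrowed the range of levels. The joined counts were divided by the member's own effective length. Among the 77 canonical genes the SD of log2 TPM was 0.95 and 0.96 in the libraries as deposited, and 0.67 and 0.61 after joining. The highest gene exceeded the lowest 31.7-fold and 33.6-fold before, and 8.21-fold and 8.03-fold after. By kallisto without joining, the SD was 0.85 and 0.75. After joining, the lowest canonical gene was Rps26 in replicate 1, at 54.8 TPM, and Rpl22 in replicate 2, at 94.5 TPM. Rpl28 was then highest in both, at 450.1 and 759 TPM. Joining added the reads of copies to members and took none away, so the lowest genes could only rise.

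**Figure D3:**
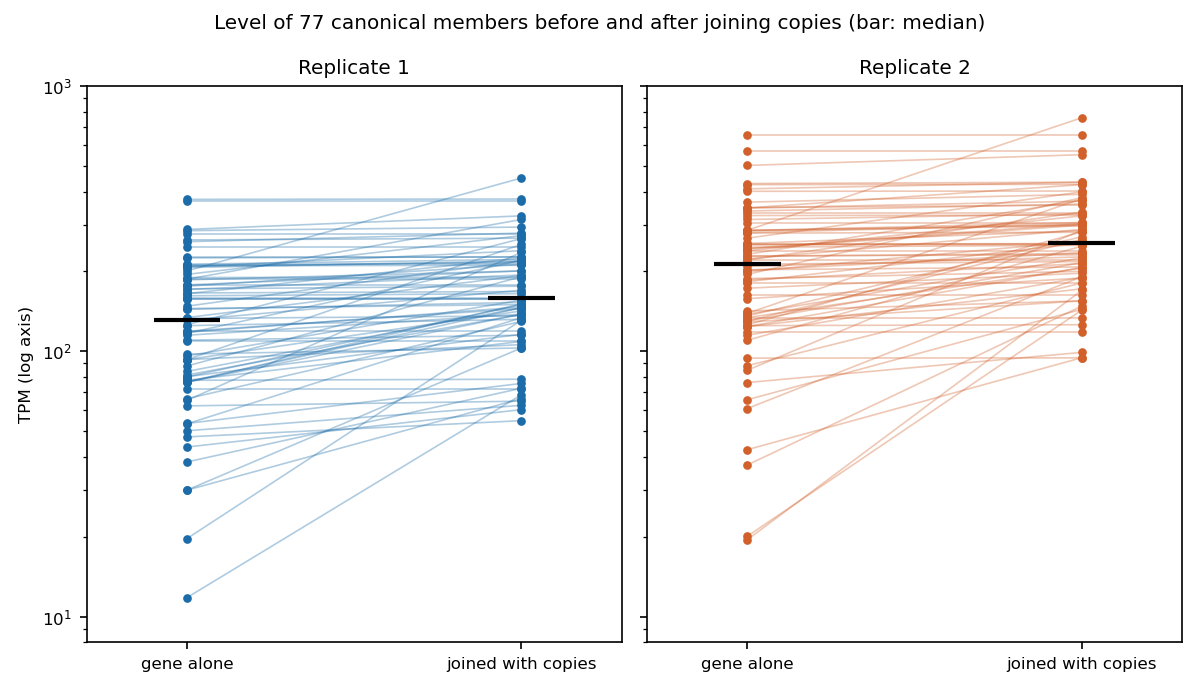
TPM (vertical log axis) of the 77 canonical members as deposited and joined with their copies, 1 line for each gene and 1 panel for each library, with the median as a black bar. The lowest points on the left, Rpl27 and Rpl5, rise most, and the range narrows from 31.7-fold to 8.21-fold in replicate 1 and from 33.6-fold to 8.03-fold in replicate 2.

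The second quantification gave the same order of members in outline, with Spearman's rho of 0.88 across the 86 genes, which share libraries and are not independent. Of 83 members compared, 6 differed over 2-fold, in 1 direction in either library. The share of all 13328 genes compared that did so was 13.2%, and of protein-coding genes 4.19%. By direction, protein-coding genes were higher by kallisto in 3.87% and higher in the gene table in 0.328%. Kallisto was higher for 5 of the 6 members. Rpl11 had 76.5 and 115 TPM in the gene table and 160.0 and 239 by kallisto. Rpl31 had 66.3 and 221 against 147 and 449, and Rpl27a had 53.3 and 60.9 against 127 and 197. Rpl5 and Rpl27, described above, were the remaining members higher by kallisto, and Rps27rt was the single member higher in the gene table.

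Most members were higher in replicate 2 relative to the other genes. In the exact binomial test on rounded expected counts with TMM scaling, 84 members reached the minimum of 10 counts summed over the libraries. At an adjusted p under 0.05, 64 of them (76.2%) were higher in replicate 2, 1 was higher in replicate 1 and 19 were not called. The background was 17.0% of all 15118 genes tested higher in replicate 2 and 15.0% higher in replicate 1, and for protein-coding genes 19.0% and 13.7%. Members have many counts, so small differences pass the test: among the 4842 genes whose counts summed to 1000 or more, 30.2% were higher in replicate 2, against 61 of 75 members (81.3%). The median log2 ratio of replicate 1 over replicate 2 was -0.36 for members and 0.00 for all genes tested. Scaled by the ERCC spike-ins, the whole distribution moved, with a median of -0.74 for all genes and -1.10 for members, and 81 of 84 members and 73.8% of all genes were then higher in replicate 2. The test covers counting error only.

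Members of both subunits were called mostly toward replicate 2. Of the large subunit genes, 36 of 46 were higher in replicate 2, with a median ratio of -0.36, and of the small subunit genes 25 of 31, with a median of -0.37. By kallisto counts these were 37 of 46 and 22 of 31, where 2107 of all 19305 genes tested were higher in replicate 2. The kallisto counts were scaled with the same library sizes, and the median ratio of all genes was 0.11 there. Joined with copies, 42 of 46 large and 25 of 31 small subunit genes were higher in replicate 2. The difference between the subunits was not tested. Of the 7 other symbols tested, Rpl22l1, Rpl36al and Rps27l were higher in replicate 2, and Rpl3l, Rpl7l1, Rps19bp1 and Rps27rt were not called. The ratios ranged from -1.50 to 0.32 and were below 0 for 77 of the 84.

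The 6 members that were over 2-fold higher in replicate 2 are set against 2.87% of all genes tested. Rpl31 (ENSMUSG00000073702.11), a protein near the exit of the peptide tunnel, had 606 counts in replicate 1 and 1732 in replicate 2, a log2 ratio of -1.50 (adjusted p = 9.65e-120, exact binomial test). Rps26 (ENSMUSG00000025362.6) had 522 and 1473 counts, a ratio of -1.48. Rpl36 had 269 and 678 counts, a ratio of -1.32. These 3 remained over 2-fold higher in replicate 2 when joined with their copies, at -1.13, -1.53 and -1.11. By kallisto counts, Rpl31 and Rps26 remained so, at -1.14 and -1.43, but Rpl36 was at -0.53.

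Rps12 and Rpl15 changed when their copies were counted with them. Rps12 had 991 and 2138 counts, a ratio of -1.09, but its copy Rps12-ps3 went the other way, with 931 and 561 counts, and the joined ratio was -0.23. Rpl15 had 1012 and 2152 counts and a ratio of -1.07. Its copy Rpl15-ps3, identical over 615 bases, had 605 and 36.1 counts, and the joined ratio was -0.37. The joined ratio of Rps12 also includes other copies, among them Rps12l1, with 391 and 203 counts. By kallisto counts without joining, the ratios were -0.31 for Rps12 and -0.64 for Rpl15. Rps29 had 1321 and 2707 counts, a ratio of -1.02, and -0.95 when joined.

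Rpl5 was the only member called higher in replicate 1, with 435 and 369 counts and a ratio of 0.25 (adjusted p = 0.0433, exact binomial test). The call was kept with DESeq2 size factors, at 0.25 (adjusted p = 0.0432, exact binomial test), and by kallisto counts, at 0.24 (adjusted p = 0.000182, exact binomial test). In the kallisto comparison, however, the median ratio of all genes tested was 0.11, and 4234 of 19305 genes were called higher in replicate 1. The call of Rpl5 was not kept when copies were counted with the gene. Joined with its copies, Rpl5 had a ratio of -0.13 and was called higher in replicate 2 (adjusted p = 0.00244, exact binomial test). In the joined counts 70 of 84 members and 16.8% of all genes were higher in replicate 2, and 0 members in replicate 1. Rpl10, Rps7, Rpl35, Rpl27 and Rpl27a, which were not called alone, had joined ratios of -0.53, -0.42, -0.40, -0.49 and -0.30 and were called. Rps2 was called alone, with a ratio of -0.18, and not when joined, with -0.07.

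The members that did not differ detectably between the libraries included some of the most deeply counted. Rps9 had 5379.6 and 5241 counts, a ratio of 0.05 (adjusted p = 0.129, exact binomial test). Rps27a had 3418 and 3512 counts, a ratio of -0.02. Rplp2, a second acidic stalk protein, had 1841 and 1790.2 counts, a ratio of 0.06. Rps3, which lies at the mRNA entry channel, had 3247 and 3469.9 counts, a ratio of -0.08. At this depth, differences well under those of Rpl31 or Rps26 would have been called for these genes, as they were for Rpl4, with 5008 and 5459 counts and a ratio of -0.11.

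**Figure D4:**
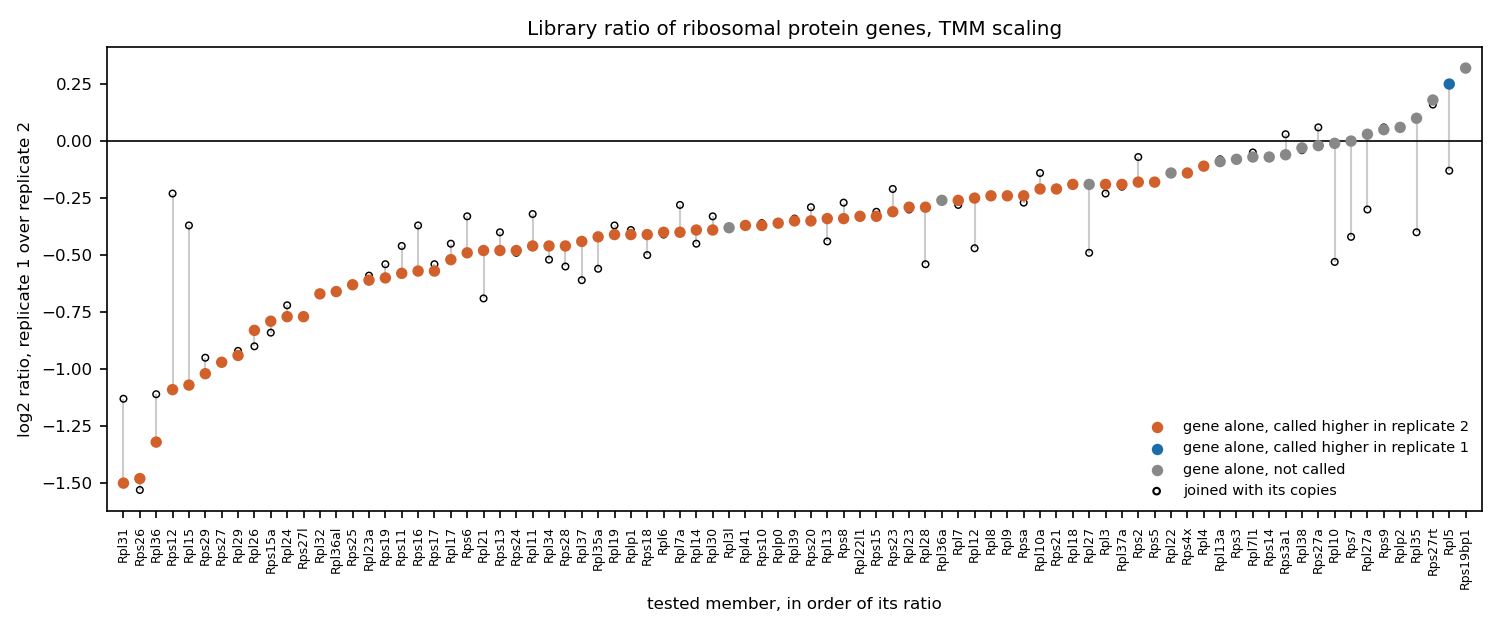
Log2 ratio of replicate 1 over replicate 2 (vertical axis, TMM scaling) for tested members in order of their ratio. Filled points are the gene alone, coloured by call, and open circles the gene joined with its copies. Most filled points lie below 0, and Rpl5 moves from 0.25 to -0.13 on joining.

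The difference went with transcript length. The library ratio and the effective length of the 84 members had a Spearman's rho of 0.33, across genes of the same libraries. Other protein-coding genes whose counts summed to 1000 or more showed the same order. Those with an effective length under 400 nt had a median ratio of -0.48, and 88.1% of 42 were higher in replicate 2. The 14 members in that class had a median of -0.44. Between 400 and 800 nt the medians were -0.33 for 138 other genes, of which 76.8% were higher in replicate 2, and -0.38 for 50 members, of which 41 were. Between 800 and 1600 nt they were -0.11 for 779 other genes, with 43.8% higher, and -0.21 for 10 members, with 8 higher. At 1600 nt or more, 3614 other genes had a median of 0.02. Within a length class, members thus differed from other genes by at most 0.10 in their median. The part of transcript length in the difference of the members was not tested.

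Markers of several cell types also differed between the libraries. All 12 neutrophil markers were higher in replicate 2, with a median ratio of -0.48, and 11 of 12 were by kallisto counts. Their summed level was 40282 and 80359 TPM, a unit that sits higher in replicate 2. S100a8 had 8892 and 22882 TPM and S100a9 13196 and 27792 TPM. The B cell markers summed to 7.22 and 22.8 TPM, with 6 of 7 called higher in replicate 2. The erythroid markers summed to 50.7 and 124 TPM, with 5 of 7 higher in replicate 2. The plasma cell markers summed to 67.6 and 93.1 TPM, of which Xbp1, not called, made up 56.0 and 66.3 TPM. Tnfrsf17 was at 0 in both, and 3 of 4 tested were higher in replicate 2. The T cell markers summed to 1.02 and 1.32 TPM, with 0 of 3 tested called in either direction. The monocyte and macrophage markers summed to 268 and 391 TPM, of which Ly6c2, called higher in replicate 2, made up 253 and 372 TPM. Adgre1 and Vcam1 were not called, and C1qa, C1qb, C1qc and Cd5l had at most 4 counts in either library. Platelet markers summed to 17.7 and 14.0 TPM, with 3 of 5 higher in replicate 1 and 1, Gp9, higher in replicate 2. Under ERCC scaling 1 of 5 was called in each direction. The 7 progenitor and cycling markers summed to 639.7 and 813 TPM, with 4 higher in replicate 2 and a median ratio of -0.10. The markers were not matched to the members by transcript length, and their part in the difference of the ribosomal protein genes was not tested.

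Ribosomal proteins that the naming rule leaves out were also higher in replicate 2. Fau, a fusion with a ubiquitin-like protein, had 402 and 606 TPM and a ratio of -0.36. Rack1, a scaffold on the small subunit, had 122 and 164 TPM and a ratio of -0.16. Among 14 other genes known for a TOP motif, 9 were higher in replicate 2 and 0 in replicate 1, with a median ratio of -0.14. By kallisto counts 8 were higher in replicate 2 and 1 in replicate 1. The background higher in replicate 2 was 17.0% of all genes and 30.2% of those whose counts summed to 1000 or more. These 14 genes were not matched to the members by transcript length. The elongation factor Eef1a1 was the highest of them, with 822 and 1156 TPM and a ratio of -0.23. Tpt1, the translationally controlled tumour protein, had the largest ratio, -0.48, with 456 and 797 TPM. Vim, which encodes vimentin, had 543 and 683 TPM and a ratio of -0.35.

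The factors that build ribosomes did not share this direction. Of 53 ribosome assembly genes, 8 were higher in replicate 1, 1 in replicate 2 and 44 were not called, with a median ratio of 0.02. They were not matched to the members by transcript length, with which the ratio went. Other protein-coding genes with 1000 or more counts had a median of -0.33 between 400 and 800 nt. At 1600 nt or more it was 0.02. Against the background of 15.0% and 17.0% of all genes, the calls toward replicate 1 are near their share and those toward replicate 2 are few. Under ERCC scaling, which moves all genes, 52 of the 53 were higher in replicate 2 with a median of -0.72, less far than the members' -1.10. Their median level was 7.78 and 9.20 TPM, above the 4.03 and 4.87 TPM of protein-coding genes and far below that of the members. The highest were the nucleolar proteins Ncl, with 58.4 and 64.2 TPM, and Npm1, with 55.3 and 65.6 TPM, and the processing factor Rrp1, with 55.0 and 60.8 TPM. Brix1, Heatr1 and Efl1 had the largest ratios toward replicate 1 among those called, 0.39, 0.38 and 0.36, and Ltv1 was the single one called toward replicate 2, with -0.24.

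Of 13 genes listed as regulators of ribosomal protein synthesis, 7 were higher in replicate 1, against 15.0% of all genes, and 1 in replicate 2. Their median ratio was 0.10, while under ERCC scaling all 13 were higher in replicate 2 with a median of -0.64. Mdm2 was highest with 120.4 and 131 TPM, followed by Eif4ebp2, a repressor of cap-dependent translation, with 43.9 and 52.7 TPM. Mdm2, among the 7 called toward replicate 1, encodes the p53 ligase that RPL5 and RPL11 restrain, not a regulator of their synthesis. The mTOR partner Rptor had the largest ratio toward replicate 1, 0.36, with 669 and 529 counts. Eif4ebp1 was the one called toward replicate 2, with a ratio of -0.37 and 16.8 and 27.1 TPM. Larp1 had 18.1 and 19.6 TPM and a ratio of 0.15. The difference between the lists was not tested, and the lists were not matched by transcript length.

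Part of the members' RNA was placed on transcripts that are not annotated as protein-coding. By kallisto, protein-coding transcripts held 74.8% and 71.3% of the members' TPM. Transcripts with a retained intron held 13.1% and 14.3%, those annotated as processed transcripts 9.05% and 11.7%, and those annotated for nonsense-mediated decay 3.02% and 2.74%. The part that was not protein-coding came to 26.9% ± 2.51 (SD, n = 2), and to 21.0% in the first transcript table, that with RSEM's layout. Of the 83 members with TPM above 0 by kallisto, 62 had a protein-coding transcript as the leading one. No matching shares over all protein-coding genes are set beside these, so whether they are particular to the members is not known.

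A few members carried nearly all of their TPM on such transcripts. The share by kallisto was 98.9% and 99.5% for Rpl37, 97.6% and 98.2% for Rpl35, 97.3% and 98.2% for Rps20, and 96.6% and 96.8% for Rps26. Rpl23 and Rpl27a followed with a mean of 95.1% each. For Rps26 both quantifications named the same leading transcript, Rps26-202, which retains an intron and held 95.2% and 96.2% by kallisto and 97.1% and 96.2% in the other table. For Rps20 it was Rps20-201, also with a retained intron, at 91.2% and 67.4%. For Rpl27a the leading transcript by kallisto was Rpl27a-205, annotated for nonsense-mediated decay, at 66.1% and 75.5% by kallisto and 28.2% and 40.2% in the other table, where the protein-coding Rpl27a-203 led in replicate 1 with 33.9%. In 18 members over 50% of the TPM was not protein-coding in both libraries by kallisto, and in 10 of these by both quantifications, namely Rpl23, Rpl24, Rpl27a, Rpl35, Rpl37, Rps16, Rps18, Rps20, Rps23 and Rps26. These counts, too, were not set against a share over all genes.

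Leading transcripts of this kind mostly hold the larger part of their gene's coding bases. How much of their own sequence is shared was not measured. Of the 21 leading transcripts that are not annotated as protein-coding, 6 contain every coding base of the member's reference coding transcript, the stop codon left out, and only Rpl7-203 contains under 50%. Rps26-202, of 596 bases, holds 342 of 345 coding bases (99.1%), and Rpl35-203 holds 366 of 369. The coding transcript Rps20-203 is annotated with 3706 bases, against 582 for the leading Rps20-201. A large share on a transcript that is not protein-coding therefore does not show that the coding exons were missing from the RNA, and reads across the retained introns were not examined.

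**Figure D5:**
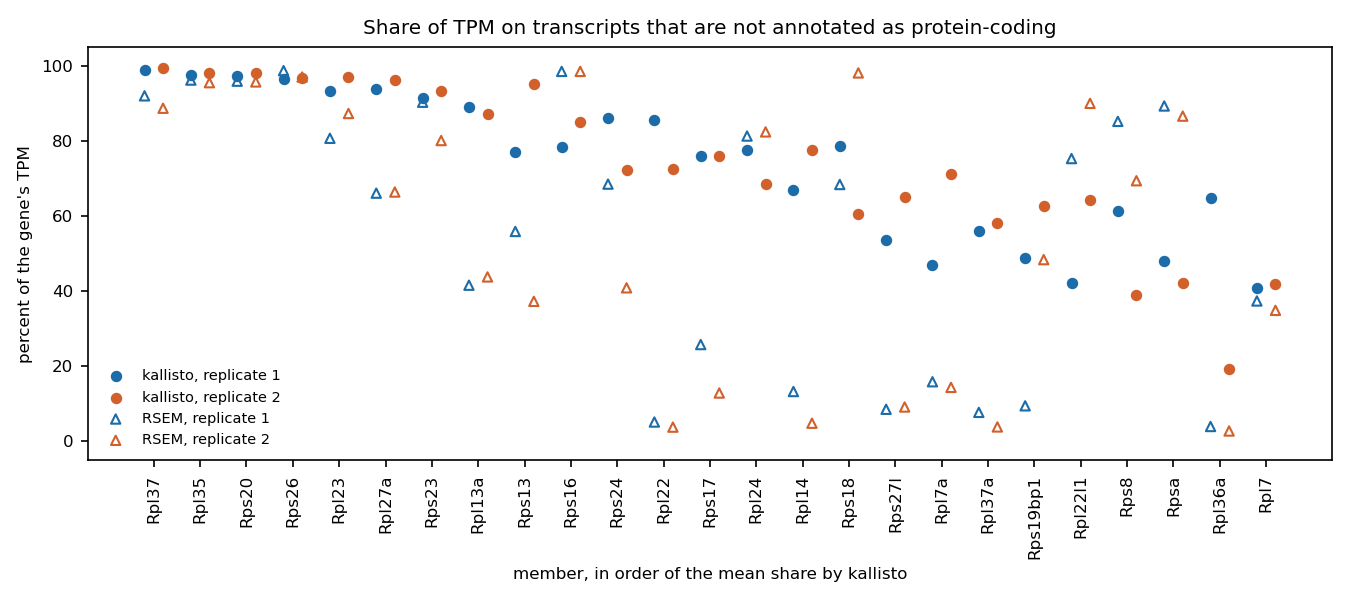
Percent of each gene's TPM on transcripts not annotated as protein-coding, for the 25 members with the largest share by kallisto, with filled circles for kallisto and open triangles for RSEM. The 4 members on the left, Rpl37, Rpl35, Rps20 and Rps26, are high by both, while Rpl22 and Rpl37a are high by kallisto alone.

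Small nucleolar RNA genes also lie within the bounds of some members. Of the 77 canonical genes, 30 contain at least 1 on their own strand. By kallisto, the median share of TPM on transcripts that are not protein-coding was 30.5% in these 30 hosts and 9.54% in the 47 others. These medians are a description with no test, and those in RSEM's layout were not taken. In 0 of the leading transcripts does an exon contain a whole small nucleolar RNA.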

How the data were processed

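Each library had a gene table and a transcript table in RSEM's column layout and a second transcript table in kallisto's. The deposited expected counts, TPM and FPKM (per the file headers) were made by the authors on mm10 with GENCODE vM21, per the files' accompanying notes. The authors' kallisto-layout table holds estimated counts and TPM, per the file headers. For the programs and their versions, the status is: not given in the sources used here. Totals were 18387963 and 18090108 expected counts, including spike-ins.

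Expected counts were rounded and compared by an exact two-sided binomial test (SciPy 1.17.1) given TMM effective library sizes (edgeR 4.0.16), where the counts of both libraries summed to at least 10, with Benjamini-Hochberg adjustment over all genes. Ratios have 0.5 added to each count. With 1 group and 2 libraries there is no test between conditions. FPKM served only as an alternative unit. DESeq2 1.42.0 gave alternative size factors. Kallisto counts were scaled with the TMM library sizes of the expected counts.

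Copies were found with BLAST 2.17.0 (megablast, word size 20) in GENCODE vM21 transcripts, an alternative chosen after seeing the data. Promoters are RefSeq's. No interval covers more than counting error, since reads carry no molecular identifiers and may repeat a molecule. Reads of both parental genomes were quantified on mm10 alone.

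Named were the 5 highest and 5 lowest canonical members per subunit by mean TPM, the 5 largest called ratios in each direction, every other symbol with a count, every member apart between quantifications, the 5 with the largest share on transcripts that are not protein-coding, the 5 pseudogenes with most counts, and of each list the 3 highest and the largest ratios. Some genes that this rule names are not reported here and are left out of the plots with gene labels. Genes named beyond these were chosen after their values were seen. The members and lists were chosen with earlier results of these data known.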

Additional observations from a re-analysis of the deposited data

How the results depend on the processing

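The count of 64 members higher in replicate 2 lay between 62 and 81 under DESeq2 size factors, total counts, ERCC scaling, no filter, kallisto counts and joining with -ps symbols or with copies. The count higher in replicate 1 was 1 with TMM and DESeq2 scaling, 5 by kallisto counts, and 0 by total counts, by ERCC scaling, without the filter, joined with -ps symbols and joined with copies. Of all 19305 genes tested by kallisto counts, 4234 were higher in replicate 1 and 2107 in replicate 2. The median ratio of -0.36 became -0.40 by total counts, -1.10 by ERCC scaling, -0.60 in deposited TPM, -0.77 in kallisto TPM and -0.39 in FPKM. The ratio of Rpl5, 0.25, reversed to -0.49 under ERCC scaling and to -0.13 when joined with its copies. It stayed toward replicate 1 but was no longer called by total counts, without the filter and joined with -ps symbols. By kallisto counts the ratios of Rps12, Rpl15 and Rpl36 shrank to -0.31, -0.64 and -0.53. The median level of 158 TPM became 397 when TPM was rescaled over protein-coding genes. The difference between the subunits, -0.43, became -0.25 by kallisto. The 6 members apart between quantifications became 12 at 1.5-fold and 2 at 4-fold. The share of protein-coding RNA, 3.58% by TPM, was 1.10% by expected counts. The share on transcripts that are not protein-coding, 26.9%, was 21.0% in the RSEM layout. From single libraries, the median level lay between 118 and 197 TPM, the subunit difference between -0.48 and -0.38, the members apart between 7 and 11, the share of protein-coding RNA between 3.36% and 3.81% and the share not protein-coding between 25.2% and 28.7%. The library comparison cannot be made without either replicate. No paired analysis was possible because the study has 1 group.

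Except where a value shows it, the cause of these shifts was not tested. Depth limits the least abundant members: Rpl3l, with 12.0 and 16.0 counts, and Rps19bp1, with 73.0 and 59.0, could have differed between the libraries without being called.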
